A study of Homo sapiens with 12 samples.

Results

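The 45 genes described here encode the machinery that copies DNA in S phase, together with ribonucleotide reductase and the transcription factors E2F1 and E2F2. They were chosen by gene symbol from a list of replication factors, and each symbol matched 1 of the 57755 gene identifiers in the deposited tables. The RNA came from KYSE510 and TE7, human cell lines labelled as esophageal squamous cell carcinoma, the first grown in RPMI-1640 and the second in DMEM. Cells of each line received THZ1 at 200 nM for 6 h, THZ1 at 50 nM for 2, 4, 6 or 12 h, or DMSO, the solvent control with no drug. Each of these 6 conditions gave 1 polyA RNA-seq library per line, 12 in all. THZ1 is a covalent inhibitor of CDK7, a kinase that acts on RNA polymerase II and on the cell cycle kinases. The DMSO libraries are titled 0 h but carry a time label of 12 h, and no DMSO library is labelled 2, 4 or 6 h. Hours of drug, time in culture and handling therefore cannot be told apart along the 50 nM course. In comparisons of conditions the 2 lines stand in as replicates, so their errors and p-values measure the spread between these lines and libraries. It is not stated that any library was made from more than 1 culture.

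Replication begins when the origin recognition complex, CDC6 and CDT1 load the ring-shaped MCM2-7 helicase onto DNA in G1. In S phase, CDC45 and the GINS complex turn the loaded ring into an active helicase, polymerase alpha with primase lays down primers, and polymerases delta and epsilon extend them. PCNA, loaded by replication factor C, clamps the polymerases to DNA, RPA covers single strands, FEN1 and LIG1 finish the lagging strand, and ribonucleotide reductase makes the deoxynucleotides. Many of these genes are classic targets of the E2F factors, whose activity peaks at the entry into S phase.

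All 45 genes were detected in every library, at 1.28 FPKM (fragments scaled by transcript length and by the mapped fragments of the library) or more, and all passed the filter of at least 1 FPKM in at least 2 libraries, as did 15610 genes in total. The FPKM of all genes summed to between 383975 and 729515 per library, and the upper 95% bound that the authors' tables give lay 4.33% to 7.01% above the FPKM in the median member, which covers counting error only. The number of fragments per library is unknown here. The KYSE510 DMSO library reached r = 0.879 over genes with its nearest library of that line, the TE7 DMSO library reached 0.976 with its own, and the 200 nM libraries reached at most 0.865 in KYSE510 and 0.865 in TE7. The keratin gene KRT6A stood at 1809 FPKM after 12 h at 50 nM in KYSE510, against 14.45 FPKM in the library labelled KYSE510 DMSO. Results are therefore also given without these 3 libraries. All 4 epithelial markers were at 1 FPKM or more in all 6 libraries of each line, as were 5 of 5 squamous markers in KYSE510 and 4 of 5 in TE7. The exception was SOX2, at 0.975 FPKM in TE7 cells at 200 nM. Of the leukocyte markers, 3 of 4 stayed under 1 FPKM in each line, as did both endothelial markers that were listed. Of the 4 fibroblast markers, 3 stayed under 1 FPKM in every KYSE510 library and 2 in every TE7 library. COL1A1 stood at 6.62 to 8.66 FPKM in KYSE510 and DCN at 2.11 to 3.68 FPKM in TE7. Bulk libraries do not tell fewer cells expressing a gene, such as fewer cells in S phase, from less RNA per cell.

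At 50 nM most of the replication genes in TE7 stood highest at the early times and lowest at 12 h. In KYSE510 the shares highest at 2 h and lowest at 12 h were closer to those of all genes. At 2 h, 26 of the 45 genes (57.8%) stood above their own DMSO library in both lines, against 24.9% of the 15610 genes tested, and at 12 h only 5 (11.1%) did, against 16.3% of genes. The median log2 change against DMSO was 0.33, 0.20, 0.08 and -0.47 for the 45 genes at 2, 4, 6 and 12 h, and 0.00, -0.06, -0.15 and -0.42 for all genes. These comparisons share the DMSO libraries. Counting DMSO as the first point, 15 of the 45 genes (33.3%) had their highest FPKM at 2 h in KYSE510, near the 28.2% of all genes that did, and 14 were highest in DMSO. In TE7, 20 genes (44.4%) were highest at 2 h, against 19.1% of all genes. At 12 h 23 genes (51.1%) had their lowest value in KYSE510, against 46.4% of all genes, and 38 genes (84.4%) did in TE7, against 60.4% of all genes. In KYSE510, 19 of the genes (42.2%) were lowest in DMSO, the library that stands apart, against 31.5% of all genes.

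**Figure D1:**
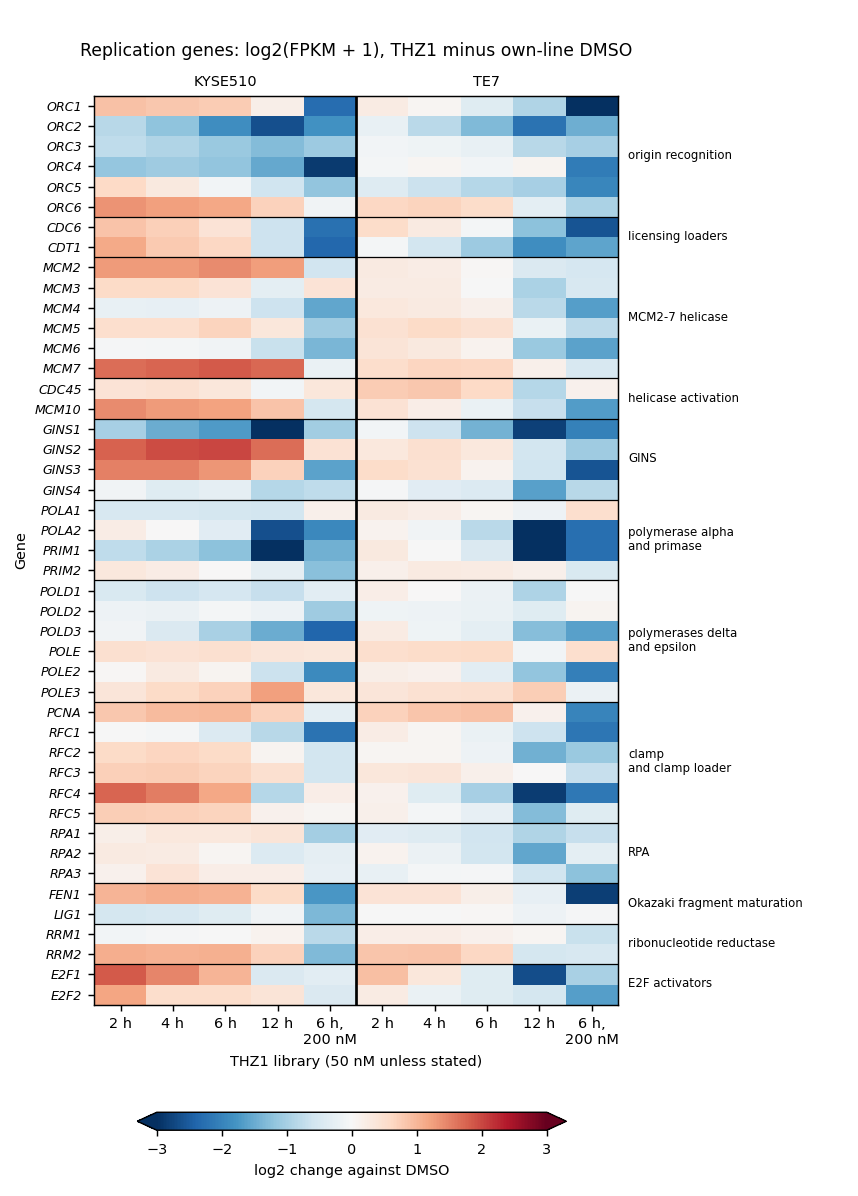
Difference in log2(FPKM + 1) between each THZ1 library and the DMSO library of the same line, for the 45 genes (rows, ordered by role) in KYSE510 (left 5 columns) and TE7 (right 5 columns); red is higher and blue lower in THZ1, and the colour scale ends at 3 in either direction. Most rows are red or pale at 2 h and blue at 200 nM. At 12 h most are blue in TE7, while in KYSE510 20 of the 45 genes are above DMSO. ORC2, ORC3, ORC4, GINS1 and PRIM1 are among the rows that are blue in KYSE510 from 2 h.

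The early values did not pass the test. With limma on log2(FPKM + 1), a block for cell line and Benjamini-Hochberg adjustment over all 15610 genes, 0 of the 45 genes were called at 2 h, where 0.0128% of all genes were called. At 4 h 0 were called, against 0.0769% of genes (0.0256% higher and 0.0512% lower). At an unadjusted p under 0.05, 12 of the 45 were higher and 1 lower at 2 h, and 11 higher and 2 lower at 4 h. At 6 h, 0 were higher (8 at the unadjusted threshold) and 1 was lower, against 4.71% of genes called, 4.02% lower. That gene was ORC2, a subunit of the origin recognition complex, with a log2 change of -1.59 ± 0.22 (SE, n = 2 lines, limma adjusted p = 0.018). The call was lost when the 2, 4 or 6 h library of either line was left out. The counts at 2 to 6 h turned most on the TE7 DMSO library: without it, 11, 7 and 7 genes were called higher at 2, 4 and 6 h, against 5.96%, 5.79% and 6.18% of all genes, with the lone KYSE510 DMSO library assumed to vary like the other groups.

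At 12 h, 15 of the 45 genes were lower (33.3%), against 25.2% of all genes, and 1 was higher, against 3.27% of genes, with 28.4% of all genes called in either direction. The share lower was near that of all genes, and the median of the 45 genes (-0.47) lay close to the median of all genes (-0.42). Split by line, the 45 genes had a median of -0.16 in KYSE510, beside -0.27 for all genes, and one of -0.82 in TE7, beside -0.52 for all genes. Their median thus lay above that of all genes in KYSE510 and below it in TE7. The genes moved unequally. POLA2, PRIM1, GINS1 and ORC2 had log2 changes between -3.23 and -2.42, while MCM7 stood at 0.94 ± 0.37 (adjusted p = 0.094) and POLE3 rose by 0.99 ± 0.20 (adjusted p = 0.0095). FPKM are shares of a library, and median-of-ratios scaling moved the median of all genes at 12 h to 0.05. On that scale 4 of the genes were lower (ORC2, GINS1, POLA2 and PRIM1) and 8 were higher (ORC6, MCM5, MCM7, POLE, POLE3, RFC3, FEN1 and RRM1), against 10.6% of all genes lower and 11.8% higher. Without the TE7 DMSO library 3 of the genes were called higher, against 7.25% of all genes. Without the TE7 12 h library 5 were called lower, against 11.7% of all genes, and without the 3 libraries that stand apart 23 were, against 44.6% of all genes. Those 23 held 14 of the 15. ORC2, GINS1, POLA2 and PRIM1 stayed called lower in all 21 alternative fits run for them, and no other gene called at 12 h did.

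**Figure D2:**
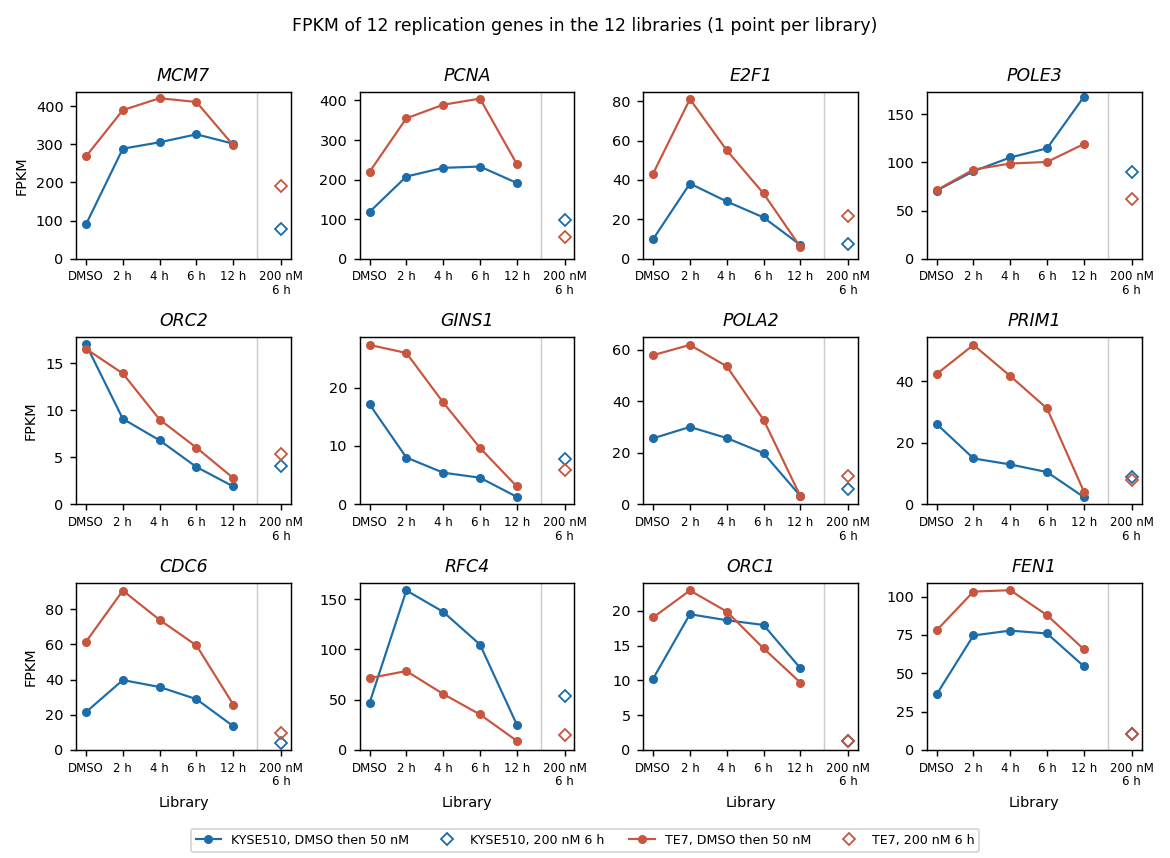
FPKM of 12 of the genes in every library, 1 point per library: lines join DMSO and 2, 4, 6 and 12 h at 50 nM, open diamonds are 200 nM at 6 h, KYSE510 in blue and TE7 in red, with a linear axis from 0 in each panel. POLA2 and PRIM1 in TE7 hold their level to 4 h and are at 3.20 and 4.16 FPKM at 12 h, ORC2 and GINS1 decline at each time, and POLE3 climbs at each time.

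The primer-making complex held the 2 genes with the largest falls at 12 h. POLA2 (ENSG00000014138, chr11:65029233-65073060 on hg19) encodes the B subunit of polymerase alpha. In KYSE510 it stood at 25.7, 30.1, 25.8, 19.9 and 3.27 FPKM in DMSO and after 2, 4, 6 and 12 h at 50 nM, and at 6.03 FPKM at 200 nM. In TE7 the same series read 58.0, 61.9, 53.6, 32.9 and 3.20 FPKM, and 11.2 FPKM at 200 nM. Both 12 h libraries lay below every other library of the set. The 12 h value was 0.127 times DMSO in KYSE510 and 0.0552 times DMSO in TE7, a log2 change of -3.23 ± 0.29 (limma adjusted p = 0.0011). PRIM1 (chr12:57125380-57146157 on hg19), the catalytic subunit of primase, was chosen for a full listing after its values were seen. Its KYSE510 values were 26.2, 14.9, 13.0, 10.5 and 2.36 FPKM in DMSO and after 2, 4, 6 and 12 h, with 8.94 FPKM at 200 nM. Its TE7 values were 42.4, 51.9, 41.7, 31.2 and 4.16 FPKM, with 8.05 FPKM at 200 nM. The lines thus differed early, since PRIM1 was below DMSO at 2 h in KYSE510 and above it in TE7, and both ended low. The 12 h change was -3.04 ± 0.45 (adjusted p = 0.0030). The PRIM1 locus overlaps that of NACA, at a mean of 524 FPKM over the 12 libraries, and the tables do not say whether strand was used in counting. The partners of both genes in the complex did not pass the test at 12 h. PRIM2, the large primase subunit, had a log2 change of -0.07 ± 0.26 (adjusted p = 0.87), and POLA1, the catalytic subunit of the polymerase, one of -0.35 ± 0.23 (adjusted p = 0.30).

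The origin recognition complex was as uneven. ORC2 (ENSG00000115942, chr2:201773696-201828403 on hg19) read 17.0, 9.09, 6.80, 3.97 and 1.90 FPKM in DMSO and after 2, 4, 6 and 12 h in KYSE510, and 4.11 FPKM at 200 nM. In TE7 it read 16.5, 13.9, 9.01, 6.02 and 2.79 FPKM, and 5.33 FPKM at 200 nM. Each time point was lower than the one before in both lines, and the 12 h change was -2.42 ± 0.22 (adjusted p = 0.0011). ORC6, the smallest subunit, went the other way at first: 18.2, 48.0, 44.3, 42.1 and 30.0 FPKM in KYSE510, and 16.8 FPKM at 200 nM. In TE7 it was at 44.9, 69.6, 71.98, 66.5 and 36.8 FPKM, and at 22.9 FPKM at 200 nM. Its 12 h change of 0.20 ± 0.24 (adjusted p = 0.57) joined values above DMSO in KYSE510 and below DMSO in TE7. ORC3 fell at 12 h, by 1.06 ± 0.27 on the log2 scale (adjusted p = 0.022), a call lost without the KYSE510 DMSO library or either 12 h library. The 12 h changes of ORC1 (-0.36), ORC4 (-0.72) and ORC5 (-0.81) did not pass the test, with adjusted p of 0.38, 0.16 and 0.061.

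Of the licensing factors, CDC6, the ATPase that helps load the MCM ring, fell by 0.93 ± 0.19 at 12 h (adjusted p = 0.011), a call lost without the TE7 12 h library. CDT1, which brings the MCM ring to the origin, read 21.2, 48.0, 37.3, 32.9 and 13.4 FPKM in DMSO and after 2, 4, 6 and 12 h in KYSE510, and 3.30 FPKM at 200 nM. In TE7 CDT1 read 68.2, 65.5, 46.2, 31.4 and 17.9 FPKM, and 22.2 FPKM at 200 nM. It thus peaked at 2 h in KYSE510 and declined from DMSO on in TE7, and its 12 h change of -1.25 ± 0.57 did not pass the test (adjusted p = 0.14).

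In the MCM2-7 ring 1 of 6 genes was called at 12 h. MCM6 fell, by 0.89 ± 0.24 (adjusted p = 0.030). Its KYSE510 values were 36.2, 35.3, 34.8, 33.7 and 22.4 FPKM in DMSO and after 2, 4, 6 and 12 h, and 13.3 FPKM at 200 nM, and its TE7 values 68.5, 89.7, 83.8, 73.6 and 31.0 FPKM, and 21.8 FPKM at 200 nM. Leaving out any 1 of 7 libraries ended that call (both DMSO, both 4 h, both 6 h and the TE7 12 h library). MCM7 (chr7:99690351-99699563 on hg19) read 90.1, 289, 305, 326 and 302 FPKM in KYSE510, and 78.9 FPKM at 200 nM. In TE7 it read 268, 389.8, 421, 411 and 298 FPKM, and 191 FPKM at 200 nM. The KYSE510 course thus stayed flat from 2 h, at 3.20 to 3.62 times the DMSO value, while the TE7 course came back close to DMSO. The 12 h changes of MCM2 (0.42), MCM3 (-0.62), MCM4 (-0.72) and MCM5 (0.07) had adjusted p of 0.51, 0.077, 0.051 and 0.83.

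Of the factors that activate the ring, CDC45 stood at 20.5, 27.5, 28.5, 26.3 and 19.2 FPKM in DMSO and after 2, 4, 6 and 12 h in KYSE510, and at 26.2 FPKM at 200 nM. In TE7 CDC45 stood at 46.5, 79.9, 81.6, 70.6 and 25.3 FPKM, and at 50.9 FPKM at 200 nM. MCM10, which helps to start unwinding, stood at 4.73, 14.2, 12.9, 12.2 and 9.45 FPKM in KYSE510, and at 2.9998 FPKM at 200 nM. Its TE7 values were 21.9, 29.8, 25.5, 19.0 and 13.1 FPKM, and 6.16 FPKM at 200 nM. Neither was called at 12 h against DMSO, with log2 changes of -0.47 (adjusted p = 0.26) for CDC45 and 0.08 (adjusted p = 0.88) for MCM10. At 200 nM CDC45 was above DMSO in both lines and MCM10 below it in both.

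GINS has 4 subunits that bind each other in equal numbers, and their RNAs parted. GINS1 (ENSG00000101003, chr20:25388363-25433264 on hg19) read 17.1, 8.02, 5.43, 4.57 and 1.29 FPKM in DMSO and after 2, 4, 6 and 12 h in KYSE510, and 7.80 FPKM at 200 nM. In TE7 it read 27.3, 25.9, 17.5, 9.67 and 3.07 FPKM, and 5.89 FPKM at 200 nM. The 12 h library was the lowest of each line, and the change was -2.89 ± 0.44 (adjusted p = 0.0033). GINS2 read 9.04, 33.5, 37.7, 39.1 and 30.9 FPKM in KYSE510, and 12.5 FPKM at 200 nM. Its TE7 values were 48.9, 61.1, 68.7, 61.3 and 32.9 FPKM, and 22.9 FPKM at 200 nM. GINS2 was thus above DMSO at 12 h in KYSE510 and below it in TE7, and its mean change was 0.56 ± 0.45 (adjusted p = 0.39). GINS4 fell by 1.25 ± 0.25 (adjusted p = 0.0092), a call lost without the TE7 12 h library, and GINS3 had a change of 0.05 ± 0.31 (adjusted p = 0.93).

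Ratios within a library do not depend on its scaling, so subunits of 1 complex can be compared on them. The pairs were picked after the values were seen, and the ratios carry no test. Besides PRIM1, 2 genes of these pairs have loci that overlap another expressed gene. GINS2 overlaps GSE1, at a mean of 12.5 FPKM, and POLA1 overlaps SCARNA23, at a mean of 5.16 FPKM. GINS1 over GINS2 was 1.9, 0.239, 0.144, 0.117 and 0.0417 in DMSO and after 2, 4, 6 and 12 h at 50 nM in KYSE510, and 0.622 at 200 nM. In TE7 it was 0.559, 0.424, 0.254, 0.158 and 0.0933, and 0.258 at 200 nM. The ratio was lower at each later time in both lines, also from 2 h on, where the KYSE510 DMSO library plays no part. PRIM1 over PRIM2 was 1.09, 0.496, 0.458, 0.432 and 0.12 in KYSE510 and 2.66, 2.9, 2.16, 1.63 and 0.235 in TE7. POLA2 over POLA1 was 1.93, 3.27, 2.78, 2.21 and 0.373 in KYSE510 and 8.23, 7.17, 6.57, 4.5 and 0.513 in TE7. Both ratios of the primer complex were much lower at 12 h than at 6 h in both lines. ORC2 over ORC6 was 0.0635 at 12 h against 0.934 in DMSO in KYSE510, and 0.0759 at 12 h against 0.368 in DMSO in TE7.

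**Figure D3:**
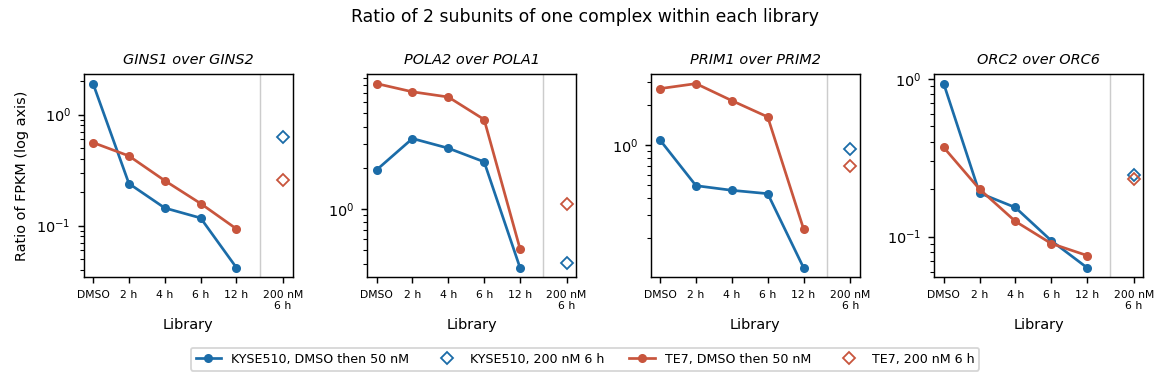
Ratio of the FPKM of 2 subunits of the same complex in each library, on log axes: lines join DMSO and 2, 4, 6 and 12 h at 50 nM, open diamonds are 200 nM at 6 h, KYSE510 in blue and TE7 in red. GINS1 over GINS2 and ORC2 over ORC6 decline in steps, and POLA2 over POLA1 and PRIM1 over PRIM2 drop at 12 h, where GINS1 over GINS2 is 0.0417 in KYSE510 and 0.0933 in TE7.

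Among the polymerases that extend primers, POLD3, an accessory subunit of polymerase delta, read 14.6, 13.5, 10.5, 6.96 and 4.55 FPKM in DMSO and after 2, 4, 6 and 12 h in KYSE510, and 2.01 FPKM at 200 nM. In TE7 POLD3 read 27.1, 32.5, 24.5, 21.8 and 10.6 FPKM, and 8.07 FPKM at 200 nM. It fell by 1.38 ± 0.23 at 12 h (adjusted p = 0.0051), and the call held whichever of the 12 libraries was left out, but not on the median-of-ratios scale. POLE3 (chr9:116169515-116172952 on hg19), a histone-fold subunit of polymerase epsilon, was the 1 gene of the set called higher. Its KYSE510 values were 70.8, 90.8, 105, 115 and 168 FPKM, and 89.9 FPKM at 200 nM. Its TE7 values were 71.2, 92.6, 98.9, 100.5 and 119 FPKM, and 62.5 FPKM at 200 nM. POLE3 was higher at each later time in both lines, and it was called higher on both scales, although not without the KYSE510 12 h library. POLE2 fell by 0.92 ± 0.22 (adjusted p = 0.017) and POLD1, the catalytic subunit of polymerase delta, by 0.80 ± 0.25 (adjusted p = 0.047). The POLE2 call was lost without the TE7 DMSO or the TE7 12 h library, and the POLD1 call in 9 of the 12 fits that left out 1 library, all but those without the KYSE510 12 h library or a 200 nM library. POLE, the catalytic subunit of polymerase epsilon, and POLD2 had changes of 0.14 (adjusted p = 0.64) and -0.26 (adjusted p = 0.58).

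PCNA (chr20:5095599-5107272 on hg19) read 118, 208, 229.7, 233 and 192 FPKM in DMSO and after 2, 4, 6 and 12 h in KYSE510, and 96.9 FPKM at 200 nM. In TE7 it read 219.6, 355, 389, 405 and 239 FPKM, and 54.5 FPKM at 200 nM. Each 50 nM library exceeded the DMSO library of its line, but no time was called against DMSO, and the 12 h change was 0.41 ± 0.39 (adjusted p = 0.47). Of its loader, RFC4 read 46.7, 159, 137, 105 and 25.3 FPKM in KYSE510, and 53.5 FPKM at 200 nM. In TE7 RFC4 read 71.5, 78.5, 55.7, 35.4 and 9.11 FPKM, and 15.3 FPKM at 200 nM. It fell by 1.85 ± 0.50 at 12 h (adjusted p = 0.029), a call that 4 of the fits leaving out 1 library lost (those without either 2 h or either 12 h library). The tables mark the RFC4 estimate as not OK in the 2 h libraries of both lines and the 4 h library of TE7. The bounds given there, 0 to 5.86, 0 to 3.20 and 0 to 2.56 FPKM, do not contain the estimates. Its locus overlaps that of EIF4A2, at a mean of 236 FPKM. RFC1, the large subunit, fell by 0.73 ± 0.17 (adjusted p = 0.017), a call lost without either 12 h library. The 12 h changes of RFC2 (-0.68), RFC3 (0.25) and RFC5 (-0.59) had adjusted p of 0.15, 0.36 and 0.19.

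In the single-strand binding trimer 1 of 3 genes was called. RPA2, the middle subunit, read 26.6, 32.3, 31.5, 27.5 and 19.9 FPKM in DMSO and after 2, 4, 6 and 12 h in KYSE510, and 21.97 FPKM at 200 nM. In TE7 RPA2 read 35.7, 38.3, 31.7, 24.0 and 11.4 FPKM, and 28.8 FPKM at 200 nM. It fell by 0.98 ± 0.29 at 12 h (adjusted p = 0.041), and 8 of the 12 fits that left out 1 library lost the call (all but those without the KYSE510 DMSO, the KYSE510 12 h or a 200 nM library). RPA1 and RPA3 had 12 h changes of -0.25 (adjusted p = 0.64) and -0.20 (adjusted p = 0.59), each positive in KYSE510 and negative in TE7.

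For the lagging strand, the flap nuclease gene FEN1 read 36.3, 74.7, 77.9, 76.0 and 54.6 FPKM in DMSO and after 2, 4, 6 and 12 h in KYSE510, and 10.1 FPKM at 200 nM. In TE7 FEN1 read 78.0, 103, 104, 87.9 and 65.7 FPKM, and 10.2 FPKM at 200 nM. Its locus overlaps that of TMEM258, at a mean of 145 FPKM. LIG1, the ligase that seals the fragments, read 45.6, 31.1, 32.6, 35.3 and 42.6 FPKM in KYSE510, with 17.3 FPKM at 200 nM, and 44.2, 44.1, 43.8, 45.004 and 39.6 FPKM in TE7, with 43.0 FPKM at 200 nM. The 12 h changes were 0.17 for FEN1 (adjusted p = 0.66) and -0.12 for LIG1 (adjusted p = 0.80). RRM1, the large subunit of ribonucleotide reductase, read 73.8, 70.1, 72.1, 73.4 and 79.1 FPKM in KYSE510, with 41.8 FPKM at 200 nM, and 64.9, 74.2, 74.2, 71.2 and 67.7 FPKM in TE7, with 40.5 FPKM at 200 nM. RRM1 was thus near its DMSO level at every time at 50 nM, with a 12 h change of 0.08 ± 0.16 (adjusted p = 0.75). The small subunit RRM2 had a 12 h change of 0.08 ± 0.41 (adjusted p = 0.91).

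E2F1 had the largest early value of the set. It read 9.92, 38.2, 29.1, 21.0 and 7.02 FPKM in DMSO and after 2, 4, 6 and 12 h in KYSE510, and 7.73 FPKM at 200 nM. In TE7 it read 43.2, 81.0, 55.1, 33.1 and 6.01 FPKM, and 21.7 FPKM at 200 nM. Both lines peaked at 2 h and then declined at each time. The change at 2 h was 1.37 ± 0.45 (adjusted p = 0.37) and at 12 h -1.55 ± 0.45 (adjusted p = 0.036), a call that 8 of the 12 fits leaving out 1 library lost (again all but those without the KYSE510 DMSO, the KYSE510 12 h or a 200 nM library). E2F2 had a 12 h change of -0.07 ± 0.30 (adjusted p = 0.88).

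The promoters of 39 of the 45 genes were in the RefSeq table used (GRCh38.p14), and the 250 bases before each start were searched on both strands. An E2F motif (TTTCCCGC or TTTGGCGC) was present in 13 of the 39 (33.3%) and in 1.96% of all 27305 promoters in the table. The NF-Y motif CCAAT was present in 23 of 39 (59%) and in 33% of all promoters, and the CHR motif (TTTGAA or TTCGAA) in 2 of 39 (5.13%) and in 14.6% of all promoters. Of the genes called lower at 12 h that have a window, 3 of 12 held an E2F motif, against 10 of 26 that were not called. The 200 bases before the start are printed for 3 genes that stood above DMSO at 2 h in both lines and hold an E2F motif (MCM7, PCNA, E2F1) and for 3 of the genes lowest at 12 h (POLA2, PRIM1, GINS1), picked after their values were seen. Each runs 5′ to 3′ along the gene, with matches to the E2F or NF-Y letters on either strand in capitals, and a match is not evidence of binding. The windows are chr7:100101398-100101597 (minus strand), chr20:5126623-5126822 (minus), chr20:33686386-33686585 (minus), chr11:65261762-65261961 (plus), chr12:56752324-56752523 (minus) and chr20:25407473-25407672 (plus), in the order of the lines that follow.
MCM7: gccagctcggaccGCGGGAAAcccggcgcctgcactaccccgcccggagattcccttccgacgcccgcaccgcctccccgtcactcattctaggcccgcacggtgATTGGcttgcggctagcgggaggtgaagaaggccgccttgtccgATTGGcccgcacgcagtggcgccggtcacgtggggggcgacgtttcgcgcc
PCNA: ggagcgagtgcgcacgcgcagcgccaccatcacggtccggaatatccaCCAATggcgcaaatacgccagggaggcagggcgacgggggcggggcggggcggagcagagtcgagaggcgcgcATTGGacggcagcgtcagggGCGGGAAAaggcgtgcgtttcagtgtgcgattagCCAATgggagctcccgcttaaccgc
E2F1: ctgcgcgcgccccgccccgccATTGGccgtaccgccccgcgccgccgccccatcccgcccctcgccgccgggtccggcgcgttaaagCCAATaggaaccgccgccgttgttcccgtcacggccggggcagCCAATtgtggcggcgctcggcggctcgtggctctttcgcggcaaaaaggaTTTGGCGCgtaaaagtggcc
POLA2: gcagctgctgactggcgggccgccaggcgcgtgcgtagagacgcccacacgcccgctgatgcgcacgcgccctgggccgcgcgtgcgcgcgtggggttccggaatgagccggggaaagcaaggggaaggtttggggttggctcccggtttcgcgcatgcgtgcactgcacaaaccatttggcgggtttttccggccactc
PRIM1: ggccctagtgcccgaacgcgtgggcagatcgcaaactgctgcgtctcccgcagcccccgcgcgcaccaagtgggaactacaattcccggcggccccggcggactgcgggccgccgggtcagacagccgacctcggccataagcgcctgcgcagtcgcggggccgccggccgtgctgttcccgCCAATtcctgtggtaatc
GINS1: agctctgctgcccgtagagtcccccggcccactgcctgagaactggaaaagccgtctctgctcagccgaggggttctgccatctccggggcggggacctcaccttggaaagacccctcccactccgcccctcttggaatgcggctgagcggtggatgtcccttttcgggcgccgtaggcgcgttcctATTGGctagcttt

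In these windows the E2F match lies 187 bases before the start in MCM7, 59 in PCNA and 20 in E2F1. POLA2 holds no exact match to either motif here, and PRIM1 and GINS1 hold 1 CCAAT match each and no exact E2F match. Only the exact letters were searched, so near matches and other spellings of the E2F motif are not counted, here or in the shares above. The POLA2 window holds tttggcgg, which differs from TTTGGCGC in the last letter only. It also holds tttcgcgc, as does the MCM7 window, which differs from each of the E2F spellings searched by 1 letter. The POLA2 window is thus not shown to lack an E2F site. MCM7, PCNA and E2F1 were chosen for holding an E2F match, so their contrast with POLA2, PRIM1 and GINS1 was set by that choice. Whether E2F factors act on these genes was not tested.

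The dose comparison set 200 nM against 50 nM, both at 6 h. Its log2 changes do not use the DMSO libraries, which enter only the shared estimate of spread behind the p-values. At 200 nM, 24 of the 45 genes were lower (53.3%), against 21.9% of all genes, and 0 were higher, against 2.94% of genes, with 24.8% of all genes called in either direction. At an unadjusted p under 0.05 1 was higher, POLA1, at 0.56 ± 0.23 (adjusted p = 0.12). The median log2 change was -1.06 for the 45 genes and -0.46 for all genes, and 37 of the 45 (82.2%) were lower in both lines, against 55.5% of genes. Among the 9186 genes with a mean of at least 5 FPKM, which hold all 45, 26 of the 45 were lower, against 36.1% of genes. The median of those 9186 genes was -0.68. After median-of-ratios scaling 13 of the 45 were lower, against 8.93% of all genes, and POLA1 was higher at 1.16. Without the 50 nM 6 h library of KYSE510 or of TE7, 10 and 9 genes were called lower, against 5.36% and 7.03% of all genes.

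Against 50 nM at 6 h, the genes furthest down at 200 nM were others than those furthest down at 12 h against DMSO. The 2 rankings have unlike references. ORC1, the ATPase subunit of the origin recognition complex, was picked for listing after its values were seen. It stood at 1.30 FPKM at 200 nM and 18.0 FPKM at 50 nM for 6 h in KYSE510, and at 1.28 FPKM at 200 nM and 14.6 FPKM at 50 nM in TE7. The log2 change was -2.91 ± 0.29 (adjusted p = 0.00090). FEN1, at the 200 nM levels given above, had a change of -2.89 ± 0.26 (adjusted p = 0.00064). GINS3 stood at 3.76 FPKM at 200 nM and 34.9 FPKM at 50 nM in KYSE510, and at 2.47 FPKM at 200 nM and 21.4 FPKM at 50 nM in TE7, a change of -2.80 ± 0.31 (adjusted p = 0.0012). CDC6 followed with -2.59 ± 0.19 (adjusted p = 0.00055). PCNA fell by 2.06 ± 0.39 (adjusted p = 0.0085), and RFC1 by 1.90 ± 0.17 (adjusted p = 0.00068). Of the 4 genes furthest down at 12 h, POLA2 was called lower here too, by 1.52 ± 0.29 on the log2 scale (adjusted p = 0.0085). PRIM1 had a change of -1.02 ± 0.45 (adjusted p = 0.13), with 0.851 times the 50 nM level in KYSE510 and 0.258 times in TE7. ORC2 had a change of -0.06 ± 0.22 (adjusted p = 0.87) and GINS1 one of 0.01 ± 0.44 (adjusted p = 0.99). ORC2 and GINS1 were already at 9.67 FPKM or less in the 50 nM 6 h libraries. ORC1, MCM4, GINS3, RFC1 and FEN1 stayed called lower in every alternative fit of this comparison.

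By role, beside the 21.9% of all genes called lower, the dose comparison called 4 of 6 origin recognition genes lower (ORC1, ORC4, ORC5 and ORC6), and 4 of 6 MCM genes (MCM4, MCM5, MCM6 and MCM7). It called 2 of 4 GINS genes (GINS2 and GINS3), 2 of 4 genes of polymerase alpha and primase (POLA2 and PRIM2), and 2 of 6 genes of polymerases delta and epsilon (POLD3 and POLE2). It also called 4 of 6 clamp and loader genes (PCNA, RFC1, RFC2 and RFC3), both genes of ribonucleotide reductase (RRM1 and RRM2), and CDC6 but not CDT1, MCM10 but not CDC45, FEN1 but not LIG1 and E2F2 but not E2F1. It called 0 of 3 RPA genes, of which RPA3 came closest to the threshold at -0.83 (adjusted p = 0.0502). No difference between roles was tested.

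Against DMSO, 24 of the 45 genes were lower at 200 nM (53.3%), beside 35.3% of all genes, and 0 were higher, beside 3.22% of genes and with 0 at an unadjusted p under 0.05. The median was -0.90 for the 45 genes and -0.65 for all genes. Among genes with a mean of at least 5 FPKM, 26 of the 45 were lower, beside 45.3% of genes, whose median was -0.79. All 6 genes of the origin recognition complex had negative changes, and 5 were called, from -2.71 ± 0.29 for ORC1 (adjusted p = 0.00065) to -1.05 ± 0.27 for ORC3 (adjusted p = 0.018). CDC6 and CDT1 were called lower as well, with changes of -2.41 and -1.97. So were POLA2, PRIM1, GINS1 and ORC2, the genes furthest down at 12 h against DMSO, although PRIM1 and GINS1 lost the call on the median-of-ratios scale. This comparison shares the DMSO libraries with those at 50 nM. On the median-of-ratios scale 11 genes were lower and 5 were higher (MCM3, CDC45, POLA1, POLE and POLE3), beside 12.2% of all genes lower and 13.1% higher.

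The 12 h libraries were also set against the 2 h libraries. These changes leave out DMSO, whose libraries enter only the shared estimate of spread behind the p-values. Of the 45 genes 18 were lower (40%), beside 20.0% of all genes, and 0 were higher, beside 1.88% of genes and with 1, POLE3, at an unadjusted p under 0.05. The median was -0.83 for the 45 genes and -0.43 for all genes, and 37 of the 45 were lower in both lines (82.2%, beside 61.7% of genes). Among genes with a mean of at least 5 FPKM, 20 of the 45 were lower, beside 25.1% of genes. POLA2 changed by -3.38 ± 0.29 (adjusted p = 0.0018), E2F1 by -2.92 ± 0.45 (adjusted p = 0.0057), PRIM1 by -2.80 ± 0.45 (adjusted p = 0.0062) and RFC4 by -2.79 ± 0.50 (adjusted p = 0.0091). Both 2 h values of RFC4 are among those marked not OK. GINS1 followed at -2.35 ± 0.44 and ORC2 at -1.89 ± 0.22 (adjusted p = 0.0098 and 0.0027). E2F1 at 12 h was 0.184 times its 2 h level in KYSE510 and 0.0741 times in TE7. After median-of-ratios scaling 7 genes were lower (ORC2, CDC6, GINS1, POLA2, PRIM1, RFC4 and E2F1) and 2 higher (POLE3 and RRM1), beside 6.44% of all genes lower and 8.64% higher. Without the 2 h library of KYSE510, the 2 h library of TE7 or the 12 h library of TE7, 5, 3 and 4 genes were called lower, against 2.59%, 1.97% and 5.81% of all genes. ORC2 and POLA2 stayed called in every alternative fit.

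**Figure D4:**
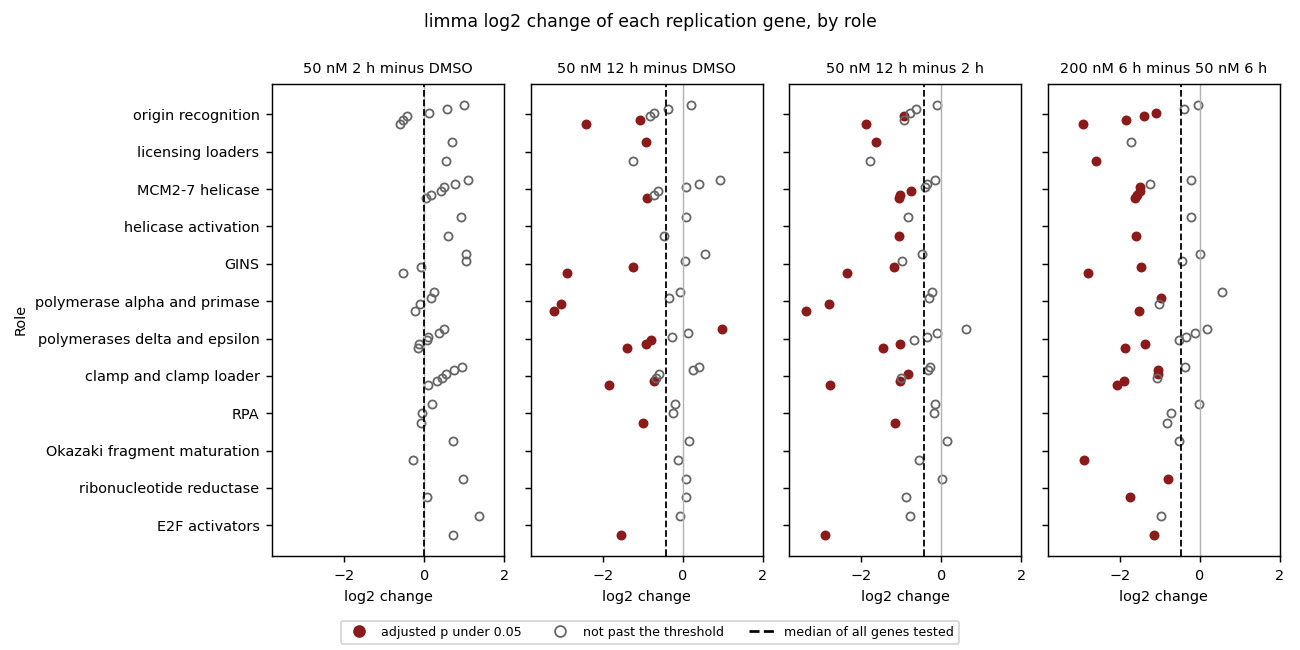
Log2 change of each of the 45 genes (points, by role) for 4 comparisons, from limma on log2(FPKM + 1) of deposited values; filled points had an adjusted p under 0.05 and the dashed line is the median of the 15610 genes tested. No point is filled at 2 h; at 12 h POLA2, PRIM1, GINS1 and ORC2 lie furthest left and POLE3 is the 1 filled point right of 0, and at 200 nM 24 points are filled, all left of 0, of which 13 are called lower under median-of-ratios scaling.

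Between the lines, matched by condition, 20 of the 45 genes were lower in KYSE510 than in TE7 (beside 28.9% of all genes) and 2 were higher (beside 17.5% of genes), with 46.3% of all genes called in either direction. With 1 line on each side, the errors here measure how steady the gap was over the 6 conditions. They do not measure a spread between lines, and the lines also differed in growth medium. The lower genes spanned CDC6 (-1.11 ± 0.11, adjusted p = 0.00041), POLD3 (-1.23 ± 0.13, adjusted p = 0.00055) and the polymerase epsilon subunits POLE2 (-1.17 ± 0.12, adjusted p = 0.00050) and POLE (-1.09 ± 0.12, adjusted p = 0.00049). The higher genes were RFC4 (1.06 ± 0.29, adjusted p = 0.020) and RPA1 (0.69 ± 0.21, adjusted p = 0.031), and each call was lost without any 1 of the 8 libraries at 50 nM. Of the RFC4 values, 3 are marked not OK. Fewer of the genes were called lower in KYSE510 without the 2 h or the 4 h library of either line, and more were called higher without either 200 nM library. The counts between the lines thus turn on single libraries. In DMSO the most abundant of the 45 were POLD2 at 218 FPKM in KYSE510 and MCM7 at 268 FPKM in TE7. The least abundant were E2F2 at 4.20 FPKM in KYSE510 and POLA1 at 7.04 FPKM in TE7. On the median-of-ratios scale 16 were lower and 8 higher, beside 23.0% of all genes lower and 22.005% higher.

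A further 40 genes that act at forks were counted without being members, of which 38 could be tested. Of these, 13 were lower and 0 higher at 12 h against DMSO (beside 25.2% of all genes lower), 18 lower and 0 higher at 12 h against 2 h (beside 20.0%), and 15 lower and 0 higher at 200 nM against 50 nM (beside 21.9%). The largest change from 2 to 12 h was that of CHAF1A, a histone chaperone subunit, at -2.56 (adjusted p = 0.0024), and WDHD1, which ties polymerase alpha to the helicase, had -1.93 (adjusted p = 0.0036). Of 15 tested E2F and pocket protein genes and their cell cycle partners, 6 were lower at 12 h against DMSO, 11 at 12 h against 2 h and 7 at 200 nM against 50 nM, with 0 higher in each and the same shares of all genes beside them. The gene of the E2F repressor E2F8 was lower at 12 h than at 2 h, at -2.03 (adjusted p = 0.0078), and the cyclin genes CCNE1 and CCNE2 at -1.40 and -1.42 (adjusted p = 0.027 and 0.028).

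Across the 45 genes, Pearson's r between the log10 span of the locus and the log2 change was -0.14 at 12 h against DMSO, beside -0.12 over all genes tested, and 0.21 at 200 nM against 50 nM, beside -0.09 over all genes. These correlations are across genes of the same libraries, which are not independent, and are given as a description.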

How the data were processed

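PolyA RNA-seq was deposited for 12 libraries of 2 cell lines. FPKM per gene, each with 95% bounds, were deposited by the authors in 1 table per library, laid out like Cufflinks output per the file headers. STAR, Cufflinks and hg19 are named per the submitters' processing notes; no source used here gives their versions, settings or gene annotation. Each table had 57755 gene identifiers, and the 108 listed at several loci were summed. A table of the whole series with damaged small numbers (6262 values) was not used. Whole-read counts were not available, so no count model was run.

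Values were tested as log2(FPKM + 1), which understates changes of low genes, with limma 3.58.1 in R 4.3.3. Genes at 1 FPKM or more in 2 or more libraries (15610) entered 1 fit with condition and cell line as terms and a mean-variance trend. Same-numbered libraries come from the same line, so the pairing holds by design. The fit had 5 residual degrees of freedom plus 2.86 from the prior. All tests are two-sided. P-values were adjusted by Benjamini-Hochberg over the whole table, the threshold was 0.05, and every adjusted p in the text is limma's.

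Errors are standard errors of the limma coefficient. The rule for the members uses gene symbols, but the members and lists were chosen with earlier results of these data known. Every member is named with its 12 h value; all 12 values are given for the largest fall and the largest rise in each role (mean FPKM at least 5) and for members called at 2 to 6 h. PRIM1, ORC1, GINS3, the ratio pairs and the printed promoters were picked after their values were seen. CHTF8 and RBL1, each on 2 identifiers, were left out of the list counts. The fit was tested on simulated data. Alternatives changed the pseudocount (0.1, 5), the filter (none, or a mean of at least 5 FPKM), the scaling, the locus and the block, or left out libraries. The fit without 3 libraries was added after seeing the data. Promoter windows are RefSeq's on GRCh38.p14; gene coordinates come from the deposited tables (hg19) and are 1-based.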

Additional observations from a re-analysis of the deposited data

Results flagged for a closer look

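RPA1, the large subunit of the single-strand binding trimer, stood above DMSO in all 4 libraries at 50 nM in KYSE510 and below DMSO in all 4 in TE7. Its mean log2 change over these times was 0.30 in KYSE510 and -0.55 in TE7, a difference of 0.85. In KYSE510 it read 84.3, 95.5, 106, 106 and 111 FPKM in DMSO and after 2, 4, 6 and 12 h, and in TE7 74.5, 59.1, 56.8, 49.7 and 39.5 FPKM. RPA3, the small subunit, showed the same split, with means of 0.23 in KYSE510 and -0.23 in TE7 and a difference of 0.46. It read 35.4, 38.9, 47.2, 40.7 and 40.6 FPKM in KYSE510, and 75.9, 65.1, 72.6, 74.4 and 49.7 FPKM in TE7. The RPA3 locus overlaps that of RPA3-AS1, at a mean of 11.7 FPKM. With 1 library per line and time these differences between lines were not tested, and the KYSE510 side rests on the DMSO library that stands apart from the rest.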

How the results depend on the processing

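Of 2696 alternative values of single genes, 2189 kept direction and side of the threshold, 427 kept direction but lost the call, 32 gained one and 48 changed sign, 45 of these at 12 h against DMSO and 3 at 200 nM. Among values of the 45 genes marked OK, the authors' 95% bounds reach at most 24.3% above the FPKM; the 3 RFC4 values not marked OK lie outside their bounds. The cause of the shifts was not tested. Pseudocounts, the locus choice and the filter at a mean of 5 FPKM moved no count of calls by over 1.5 times. That filter did raise the share of all genes lower at 200 nM against 50 nM, from 21.9% to 36.1%. Median-of-ratios scaling moved the median of all genes at 12 h to 0.05, against -0.42 as deposited.

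Median-of-ratios scaling gave 1 gene higher at 6 h, beside 0.890% of all genes. At 12 h it gave 8 higher and 4 lower, and at 200 nM against DMSO 5 higher and 11 lower. At 200 nM against 50 nM it gave 1 higher, beside 9.64% of all genes, and 13 lower. It gave 2 higher and 7 lower at 12 h against 2 h, and 8 higher in KYSE510 than in TE7. The other shares of all genes on that scale are given with each comparison above. Median-of-ratios scaling turned the 200 nM changes of GINS4, RFC3 and RRM1, called lower as deposited, to 0.0034, 0.22 and 0.12. At 12 h it turned the uncalled changes of ORC1 to 0.21, CDC45 to 0.13, POLA1 to 0.20, PRIM2 to 0.52, POLD2 to 0.36, RFC5 to 0.010, RPA1 to 0.36, RPA3 to 0.40, LIG1 to 0.48 and E2F2 to 0.47. A pseudocount of 5 put MCM10 at -0.00042.

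With no replicate block for cell line, against the pairing of the design, 0 genes were lower at 6 h, beside 0% of all genes. At 12 h 4 were lower (beside 9.77% of all genes), and at 200 nM against DMSO 12 were (beside 16.9%). At 200 nM against 50 nM 8 were lower (beside 8.07%), and at 12 h against 2 h 2 were (beside 4.71%). With no filter, 0 genes were higher in KYSE510 than in TE7, beside 8.23% of all genes. Without both 200 nM libraries 1 was higher at 4 h, beside 0.557% of all genes. At 6 h 1 was higher (beside 2.20%) and 2 were lower (beside 9.97%). At 12 h against 2 h 1 was higher (beside 4.00%), and 5 were higher in KYSE510 (beside 20.8%). Without these and the KYSE510 DMSO library, 1 was higher and 1 lower at 4 h, 2 higher and 5 lower at 6 h, 23 lower at 12 h, 1 higher and 30 lower at 12 h against 2 h, and 8 higher in KYSE510. That fit put the 12 h changes of ORC6 at -0.16, MCM2 at -0.23, MCM5 at -0.016, MCM10 at -0.54, GINS2 at -0.30, GINS3 at -0.52, FEN1 at -0.21, LIG1 at 0.042 and RRM2 at -0.19.

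Leaving out 1 library at a time gave 0 to 11 genes higher and 0 to 1 lower at 2 h, 0 to 7 higher and 0 to 1 lower at 4 h, 0 to 7 higher and 0 to 2 lower at 6 h, and 0 to 3 higher and 5 to 18 lower at 12 h. It gave 0 higher and 18 to 25 lower at 200 nM against DMSO, 0 higher and 9 to 26 lower at 200 nM against 50 nM, 0 to 1 higher and 3 to 25 lower at 12 h against 2 h, and 0 to 5 higher and 12 to 22 lower in KYSE510. The share of all genes called moved between these fits too, and is not set beside these ranges. The 12 h changes that turned sign ranged from -0.80 to 0.079 for ORC1, -0.17 to 0.58 for ORC6, -0.089 to 0.92 for MCM2, -0.21 to 0.36 for MCM5, -0.53 to 0.70 for MCM10, -0.28 to 1.39 for GINS2, -0.51 to 0.60 for GINS3, -0.20 to 0.064 for PRIM2, -0.13 to 0.41 for POLE, -0.72 to 0.21 for RPA1, -0.49 to 0.078 for RPA3, -0.24 to 0.57 for FEN1, -0.42 to 0.17 for LIG1, -0.016 to 0.18 for RRM1, -0.53 to 0.68 for RRM2 and -0.55 to 0.40 for E2F2. For ORC1, ORC6, MCM2, MCM10, GINS2, GINS3, PRIM2, RPA3, FEN1 and E2F2 the ends of the range came from leaving out the DMSO library of 1 line or the other, and for MCM5, POLE, RPA1, LIG1, RRM1 and RRM2 from leaving out the 12 h library of 1 line or the other.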
